A study of Mus musculus with 7 samples.

Results

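Sites bound by the glucocorticoid receptor after 1 h of dexamethasone were compared between Klf15-/- and wild-type mouse embryonic fibroblasts. The comparison used the 4 dexamethasone lists of summits, 2 libraries of each genotype, out of the 7 libraries of the series. Only chromosomes 1 to 19 were used, and no site was removed for being present without ligand. Neighbouring summits of the 4 lists at most 200 bp apart were linked into a site, and a list held a site when it had a summit in it. This gave 30075 sites, of which 8781 were held by all 4 lists, 1508 by both wild-type lists and neither Klf15-/- list, and 3265 by both Klf15-/- lists and neither wild-type list.

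The fibroblasts came from embryos of 14 to 17 days and were used between passages 4 and 11. The receptor (gene Nr3c1) was precipitated with an antibody made in-house, and the bound DNA was sequenced. The wild-type and the Klf15-/- cells received dexamethasone or, as controls, ethanol vehicle for 1 h. The vehicle groups hold 1 wild-type library, pooled for lack of material, and 2 Klf15-/- libraries. Whether libraries of a genotype came from separate embryos or cultures is not stated in the labels. Loss of Klf15 therefore cannot be told apart from other differences between the cell preparations, and the spread between libraries may be technical.

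The glucocorticoid receptor is a nuclear receptor that rests in the cytoplasm with chaperones and enters the nucleus when a ligand such as dexamethasone binds it. There it binds DNA directly, as a dimer on paired inverted half-sites, or with other factors such as AP-1, mostly in chromatin that is already accessible. KLF15 is a zinc-finger factor of the Krüppel-like family that binds GC-rich and CACCC sequences. Its gene is a direct receptor target, and KLF15 and the receptor are known to act together on some shared targets. Positions are on the mm9 build, counted from 1, and genes and sequences at these sites are not analysed here.

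The wild-type dexamethasone lists held 15338 and 16607 autosomal summits and the Klf15-/- lists 19432 and 19627. The vehicle lists held 9834 in wild type and 6477 and 7693 in Klf15-/-. Each summit carries a score from the authors' peak caller on an unstated scale, and read depth is unknown from these files. The lists were called separately, so depth, enrichment and occupancy cannot be told apart in the length of a list. Scores were used only as ranks within a list. The first Klf15-/- vehicle list stood apart, with 637 summits on chromosome X and 197 on chromosome Y among its 7325, against 307 and 78 among the 8088 of the second.

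Most sites that wild-type cells repeated were also found in Klf15-/- cells. Of the 11847 sites held by both wild-type lists, 10339 were held by at least 1 Klf15-/- list (87.3%, exact binomial 95% interval 86.7 to 87.9%), and 8781 by both (74.1%, 73.3 to 74.9%). Of the 14451 sites held by both Klf15-/- lists, 11186 were held by at least 1 wild-type list (77.4%, 76.7 to 78.1%). All 4 lists held 60.8% of them (60.0 to 61.6%). These intervals cover counting error only. Another 1558 sites were in both wild-type lists and 1 Klf15-/- list, 2405 were in both Klf15-/- lists and 1 wild-type list, and 1833 were in 1 list of each genotype. The remaining 10725 sites (35.7%) were in a single list.

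**Figure D1:**
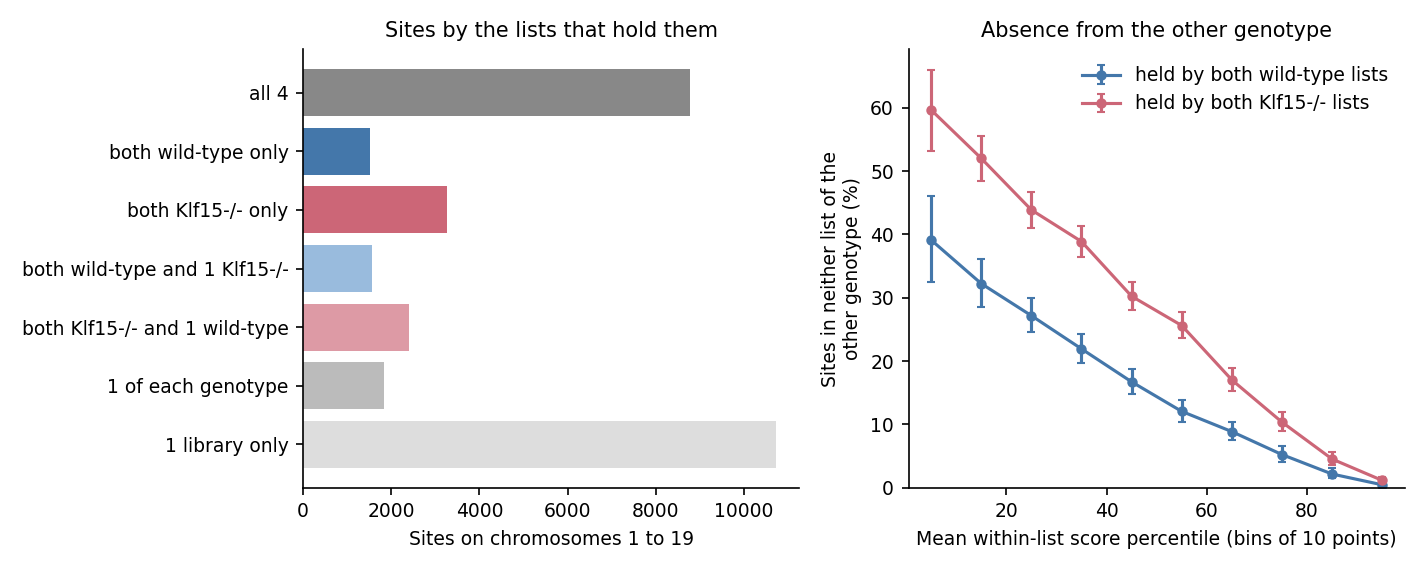
Left, number of sites on chromosomes 1 to 19 by the lists that hold them. Right, percent of sites held by both lists of a genotype that were in neither list of the other genotype, in bins of 10 points of their mean within-list score percentile, with exact 95% intervals; the share falls from 39.1% to 0.48% for wild type and from 59.7% to 1.17% for Klf15-/-.

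Klf15-/- restricted sites outnumbered wild-type restricted sites by a factor of 2.17. That factor changed with the length of the lists. With each list shortened to its 15338 highest-scoring summits, there were 1925 wild-type and 2120 Klf15-/- restricted sites, a ratio of 1.10. Equal lengths bring these counts together whatever made the lists differ, so this step cannot tell depth from occupancy. Each count also rested on both replicates. With only the second or only the first wild-type library, 3816 and 3273 sites were restricted to wild type, and the ratios were 1.12 and 1.43. With only the second or only the first Klf15-/- library, 6784 and 6608 sites were restricted to Klf15-/-, and the ratios were 2.98 and 2.85. For 2 libraries of each genotype an exact two-sided permutation test could reach p = 0.33 at best, so none was made of these counts.

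Restricted sites mainly ranked low, as a class defined by absence from 2 lists tends to. Their median within-list percentile was 37.4 and 38.1 for wild type, against 40.3 and 40.6 for Klf15-/-. Sites held by all 4 lists had medians of 68.0 and 70.5 for wild type, and 73.6 and 74.1 for Klf15-/-. Among wild-type sites with a mean percentile under 10, 81 of 207 were in neither Klf15-/- list (39.1%, 95% interval 32.4 to 46.1%), and of those at 90 or above 7 of 1463 were (0.48%, 0.19 to 0.98%). For Klf15-/- sites the corresponding shares were 142 of 238 (59.7%, 53.1 to 66.0%) and 21 of 1790 (1.17%, 0.73 to 1.79%). Above percentile 95 in both lists of its genotype, 1 of 622 wild-type sites and 6 of 760 Klf15-/- sites had no summit of the other genotype.

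Middle-ranking sites of a Klf15-/- list were found again more often in its replicate than in a wild-type list. The wild-type lists were shorter, with 15338 and 16607 autosomal summits against 19432 and 19627. The part of list length in these shares was not tested. In the middle quintile of scores, 78.6% of the sites of the first Klf15-/- list were in its replicate, and 52.1% and 56.2% in the wild-type lists. The second Klf15-/- list gave 78.2%, and 51.9% and 55.0%. Middle-quintile sites of the first wild-type list were in its replicate in 81.6%, and in the Klf15-/- lists in 70.4% and 71.6%. For the second wild-type list these shares were 74.1%, and 69.0% and 69.9%. In the lowest quintile of the second wild-type list the order turned, with 37.9% in the shorter replicate and 42.5% and 42.6% in the longer Klf15-/- lists.

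Many restricted sites lay far from any summit of the other genotype. Wild-type restricted sites were measured against the longer Klf15-/- lists, and Klf15-/- restricted sites against the shorter wild-type lists. The part of list length in these distances was not tested. The median distance was 12.0 kb for wild-type and 24.2 kb for Klf15-/- restricted sites. It exceeded 100 kb for 142 wild-type (9.42%) and 697 Klf15-/- sites (21.3%). At the other end, 161 (10.7%) and 227 (6.95%) had such a summit within 1 kb. Requiring none within 1000 bp left 1347 and 3038 restricted sites.

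Restricted sites were ordered by the lower of their 2 percentiles. The first Klf15-/- restricted site was on chromosome 8 from 65814120 to 65814147, with percentiles of 98.6 and 98.4 in the Klf15-/- lists. Its closest summit in wild type was 685 kb away. The next was on chromosome 17 from 36621691 to 36621714, with percentiles of 99.1 and 98.4, and its nearest wild-type summit was 253 kb off. Chromosome 6 held the third, from 84485046 to 84485066, with percentiles of 97.7 and 95.9. Another 3 of the first 10 were the most isolated. The site on chromosome 11 from 10698069 to 10698097 stood at 94.0 and 94.4, 1023 kb from any wild-type summit. The site on chromosome 10 from 55136643 to 55136755 stood at 93.3 and 93.2, at a distance of 1052 kb. The site on chromosome 1 from 17479537 to 17479586 stood at 93.8 and 93.0, at 882 kb. These restricted sites were also seen without ligand in the same genotype. Of the first 10, 9 had a summit of the second Klf15-/- vehicle list, 6 of the first, and 1 of the wild-type vehicle list.

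The first wild-type restricted site was on chromosome 13 from 32829166 to 32829185, with percentiles of 98.0 and 97.0 and a Klf15-/- summit 15.4 kb away. On chromosome 9, the site from 55725773 to 55725791 stood at 91.3 and 93.4, and its nearest Klf15-/- summit was 230 kb away. The site on chromosome 13 from 50103123 to 50103156 stood at 85.9 and 86.7, at a distance of 304 kb. Of the first 10 wild-type restricted sites, 6 had a summit of the wild-type vehicle list, 2 of the first Klf15-/- vehicle list and 1 of the second. The second of these 10, on chromosome 2 from 139926955 to 139926967, was not a separate region. It lay 0.27 kb from a Klf15-/- restricted site from 139926659 to 139926682, which was the fourth of its class, so the summits of the genotypes fell just beyond the linkage distance of each other.

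The 8781 shared sites allowed strength to be compared at the same places. Each site was ranked by its highest score among the shared sites of its own list, from percentile 0 (weakest) to 100, so that list length did not enter. Ranks differed more between genotypes than between replicates. The SD of the difference between 2 lists was 18.6 percentile points for the wild-type replicates and 17.4 for the Klf15-/- replicates. It was 24.9 to 25.2 when a Klf15-/- list was set against a wild-type list (4 pairs), 1.39 times the replicate mean. Pearson's correlation of ranks across these sites was 0.793 and 0.818 between replicates and 0.620 to 0.627 between genotypes. These are descriptions over sites that share libraries.

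Klf15-/- percentiles lay above both wild-type values at 2279 shared sites (26.0%) and below both at 2396 (27.3%), together 53.2%. Such separation needs no size. With 2 lists against 2, interchangeable libraries would show it in either direction at a share of 0.33. That share is also the reference for the other counts below of 2 lists without overlap against 2. It does not apply to the next count, which sets a difference of means against differences of single lists. The mean difference between genotypes exceeded both replicate differences at 3499 sites (39.8%). It passed 50 points at 273 sites. Single replicate lists were that far apart at 116 sites in wild type and 85 in Klf15-/-. These counts are not on the same scale, since the genotype difference is between means of 2 lists. Its SD was 21.6 points, against 24.9 to 25.2 between single lists of the genotypes. Sites without overlap were thus nearly equal in number in both directions, which ranking within one set of sites favours by construction. On the within-list percentile, with all summits of a list as the scale, 2964 sites lay above and 1783 below. On that scale the median shared site was 2.21 points higher in the longer Klf15-/- lists. Between replicates the median difference was -0.79 points in wild type and -0.054 in Klf15-/-, library 1 minus library 2.

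**Figure D2:**
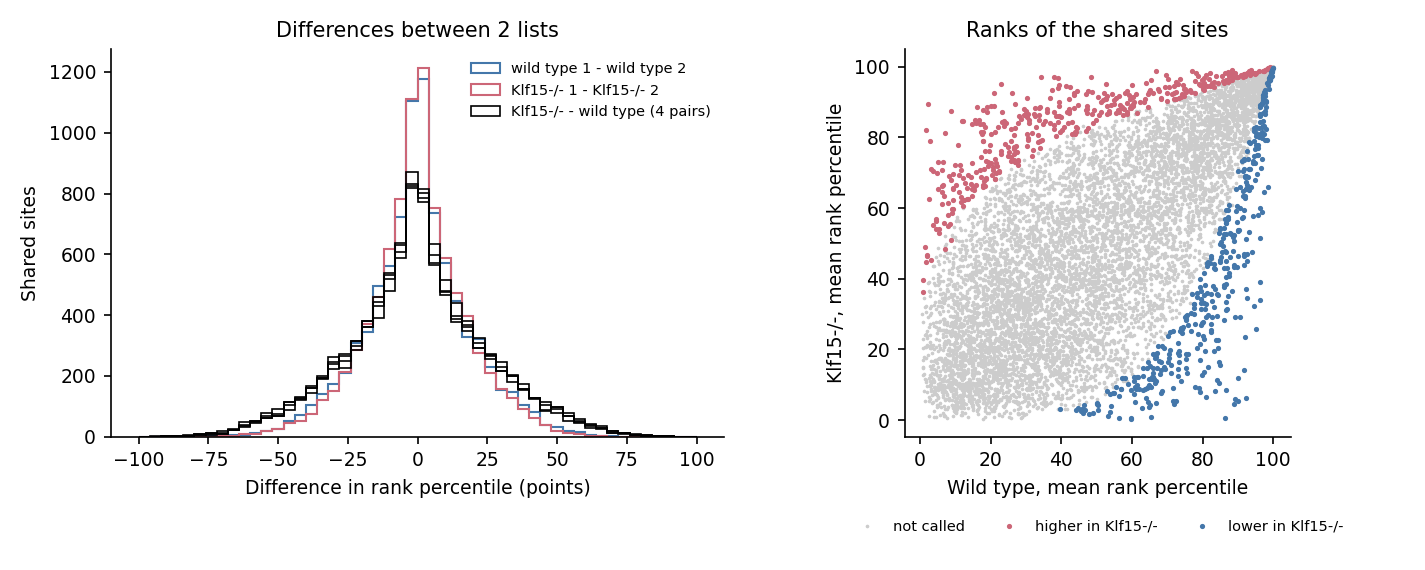
Left, histograms over the 8781 shared sites of the difference in rank percentile between 2 lists, for the 2 replicate pairs (coloured) and the 4 pairings across genotypes (black); the black curves are lower at 0 and wider. Right, mean rank percentile of each shared site in Klf15-/- against wild type, with the 418 sites called higher and the 401 called lower coloured.

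A limma fit over all shared sites, on normal scores of the ranks and with the spread allowed to vary with rank, called 418 sites higher in Klf15-/- (4.76%) and 401 lower (4.57%) at a Benjamini-Hochberg adjusted p under 0.05. A normal score puts ranks on the scale of standard deviations of a normal distribution. In all 819 called sites the libraries of the genotypes did not overlap. The median difference was 45.5 points in those called higher and -45.3 in those called lower. Not every fit made these calls. With the spread not allowed to vary with rank, or on plain percentiles, limma called 0 sites (smallest adjusted p of 0.114 and 0.077). In those fits 1747 and 2009 sites had an unadjusted p under 0.05, against 2165 in the fit reported. On within-list percentiles 488 were higher and 198 lower. Leaving out a library gave 371 and 471 higher but 139 and 241 lower without the first or second wild-type library. Without the first or second Klf15-/- library it gave 224 and 228 higher, and 396 and 380 lower.

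The rank changes were not limited to weak sites. In the weakest quintile of shared sites by mean rank, 17 of 1757 were called (0.97%), and in the strongest quintile 243 of 1756 (13.8%). Libraries did not overlap at 41.04% of sites in the weakest quintile and at 57.6% in the strongest. The strongest sites moved little in points: the median genotype difference there was 4.57, against 3.03 and 3.01 between replicates. In the middle quintile it was 19.7, against 15.2 and 13.8. Of 695 sites in the top decile of both wild-type lists, 456 (65.6%) were also in the top decile of both Klf15-/- lists. Only 6 of the 695 were below the median in both. Of 691 sites in the top decile of both Klf15-/- lists, 10 were below the median in both wild-type lists.

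The 5 strongest shared sites were chosen by their ranks in these 4 lists, so their high ranks do not show stability between genotypes. The top 3 shared sites had the same rank in all 4 lists: chromosome 9 from 35112968 to 35112998, chromosome 18 from 90771773 to 90771794, and chromosome 12 from 3109923 to 3109981. Below them the order changed between the wild-type lists. The site on chromosome 2 from 181747703 to 181747739 had percentiles of 99.95 and 99.96 in the first and second wild-type list. The site on chromosome 6 from 103599209 to 103599225 had 99.96 and 99.95. All of the first 5 were also in all 3 vehicle lists, so receptor occupancy and signal from other sources cannot be told apart there.

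Among sites that gained rank in Klf15-/-, the widest separation was on chromosome 14 from 121533533 to 121533686. Its percentiles were 4.15 and 0.61 for wild type but 91.1 and 87.7 for Klf15-/-. It went from the weakest to the strongest shared sites, with a normal score difference of 3.37 (SE 0.47, limma adjusted p = 7.6e-05). All 3 vehicle lists held it. The second site, on chromosome 2 from 162108500 to 162108599, rose from 1.77 and 1.38 in wild type to 81.3 and 83.0 in Klf15-/- (difference 3.07, SE 0.49, limma adjusted p = 0.00024). Without ligand only the first Klf15-/- list held it.

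The third site that gained, on chromosome 9 from 110744215 to 110744324, rose from 14.7 and 17.3 to 88.2 and 89.1. The site on chromosome 1 from 167368935 to 167368985 had 16.2 and 1.38 against 87.1 and 87.997, with no vehicle summit. Its wild-type values were far apart but both low. On chromosome 5 from 16107510 to 16107587 the libraries of a genotype were close together, at 24.9 and 27.2 for wild type against 93.3 and 91.8 for Klf15-/-. Chromosome 1 held another pair (21604257 to 21604362 and 145960277 to 145960354). The rest were on chromosome 12 from 68695916 to 68696030, on chromosome 9 from 81375418 to 81375436, and on chromosome 3 from 156454356 to 156454424. Over the 10 sites, wild-type values ranged from 0.61 to 27.2 and Klf15-/- values from 69.4 to 93.3, with limma adjusted p-values up to 0.0028.

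Among sites that lost rank in Klf15-/-, the widest separation was on chromosome 16 from 72268110 to 72268472. It fell from percentiles 89.2 and 88.7 to 6.20 and 2.97 (normal score difference -2.94, SE 0.43, limma adjusted p = 8.9e-05). The wild-type vehicle list held it and neither Klf15-/- vehicle list did. The second site, on chromosome 10 from 21240891 to 21240953, fell from 89.1 and 83.3 in wild type to 1.20 and 0.091 in Klf15-/- (difference -3.79, SE 0.54, limma adjusted p = 8.6e-05). It was near the very bottom of the shared sites in Klf15-/- cells. Its vehicle summits were also in wild type alone.

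The third site that lost rank, on chromosome 14 from 56957023 to 56957086, stood at 88.5 and 96.2 against 4.61 and 8.06. The fourth, on chromosome 6 from 72513331 to 72513367, stood at 84.7 and 93.4 against 4.61 and 7.23. Neither had a vehicle summit in any list, so both were strong wild-type sites found with ligand only. On chromosome 17 from 7179577 to 7179691 the values were 84.3 and 95.5 against 10.0 and 0.84. Chromosome 1 held another pair (44273779 to 44273853 and 72777803 to 72777840). The rest were on chromosome 11 from 116590858 to 116590930, on chromosome 19 from 23102958 to 23102999, and on chromosome 4 from 85080844 to 85080924. Over the 10 sites, wild-type values ranged from 76.8 to 96.2 and Klf15-/- values from 0.091 to 15.4, with limma adjusted p-values up to 0.00074. With the spread not allowed to vary with rank, and on plain percentiles, limma adjusted p-values were up to 0.114. All 20 sites lost their call in both fits. They held it in every other alternative in which the site was found in all lists used. Only 10 of the 20 were so found in lists of equal length, and none in lists cut at their median score.

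**Figure D3:**
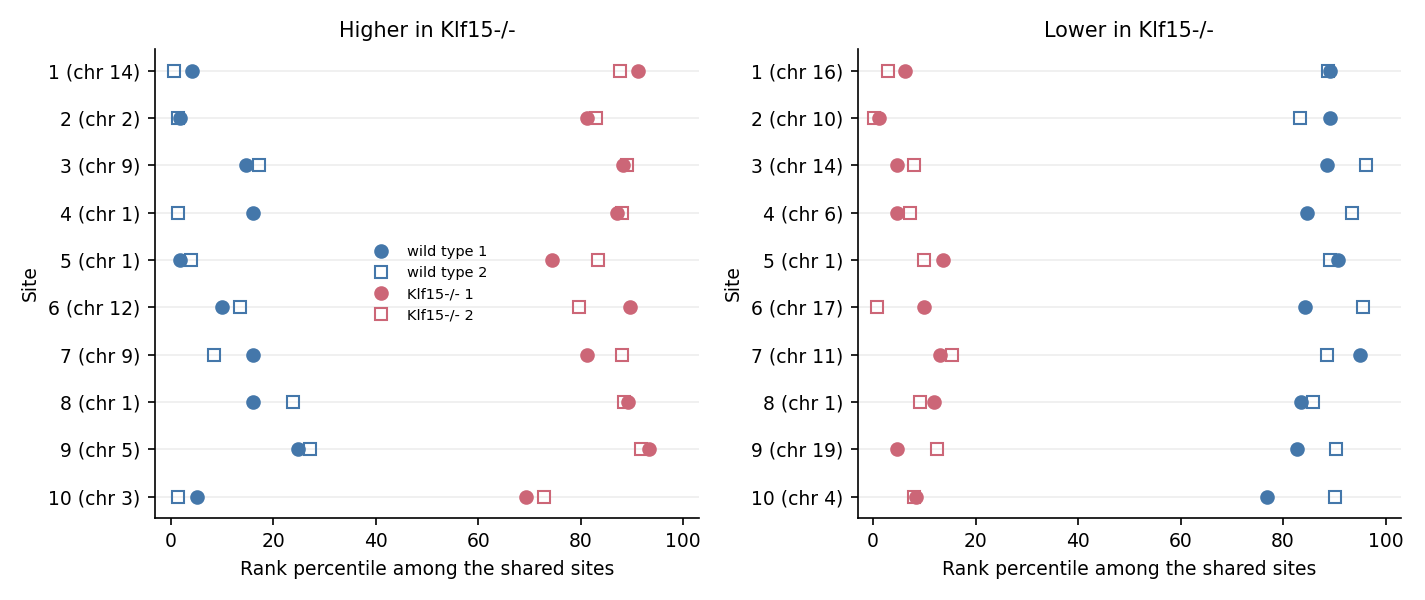
Rank percentile among the 8781 shared sites in each of the 4 lists (blue, wild type; red, Klf15-/-; filled circles, library 1; open squares, library 2) for the 10 called sites with the widest separation in each direction. The sites were chosen for this separation, so the genotypes lie toward opposite ends of the scale. The libraries of a genotype were close at some sites and further apart at others.

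The vehicle lists, which took no part in choosing or ranking these sites, leaned the same way relative to the sites not called. Of the 418 sites called higher, 180 had a summit of the wild-type vehicle list (43.1%, 38.3 to 48.0%), 189 of the first Klf15-/- vehicle list (45.2%, 40.4 to 50.1%) and 264 of the second (63.2%, 58.3 to 67.8%). Of the 401 sites called lower, the wild-type vehicle list held 266 (66.3%, 61.5 to 70.9%). The Klf15-/- vehicle lists held 93 (23.2%, 19.1 to 27.6%) and 146 (36.4%, 31.7 to 41.3%). Sites not called lay between, at 60.3%, 30.7% and 47.2% in the same order of lists. At sites called higher, the intervals of the wild-type and the first Klf15-/- vehicle list overlapped. The vehicle lists differ in length, and wild type has a single pooled library. A summit in any vehicle list was about as frequent in the 3 groups, at 69.9%, 67.8% and 69.0%.

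Ranks without ligand differed in the same direction. Of the shared sites, 2117 had a summit of all 3 vehicle lists and were ranked among themselves in each. The 134 called higher had a median percentile of 24.0 in wild type, against 49.4 and 60.0 in the Klf15-/- vehicle lists. The 81 called lower had 81.6 in wild type, against 47.4 and 49.2. The mean Klf15-/- vehicle rank was above wild type at 108 of the 134 (80.6%) and at 6 of the 81 (7.41%), against 955 of the 1902 not called (50.2%). The Klf15-/- ranks of both called groups thus lay near the middle, and it was the single wild-type list that was low in one and high in the other. With wild type represented by 1 vehicle library, that contrast has no replicate check. Without the first Klf15-/- vehicle list the shares were 85.4% of 164 and 9.22% of 141, and without the second 74.5% of 137 and 16.5% of 91. Across the 2117 sites, the genotype differences with and without ligand had a Pearson correlation of 0.434. Vehicle and dexamethasone libraries of a genotype may share a culture, which the labels do not state.

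Most restricted sites had no vehicle summit: any vehicle list held 33.6% of wild-type and 30.9% of Klf15-/- restricted sites. Summits of the own genotype were the more frequent, only narrowly so for the first Klf15-/- vehicle list. The wild-type vehicle list held 464 of the 1508 wild-type restricted sites (30.8%, 28.4 to 33.2%), and the Klf15-/- vehicle lists 46 (3.05%, 2.24 to 4.05%) and 75 (4.97%, 3.93 to 6.20%). Of the 3265 Klf15-/- restricted sites, the Klf15-/- vehicle lists held 350 (10.7%, 9.68 to 11.8%) and 721 (22.1%, 20.7 to 23.5%), and the longer wild-type list 291 (8.91%, 7.96 to 9.94%). Sites held by both lists of a genotype and 1 of the other were intermediate. Of the 1558 with both wild-type lists, the vehicle lists held 39.9% in wild type and 8.73% and 16.4% in Klf15-/-. Of the 2405 with both Klf15-/- lists, they held 26.3%, and 14.7% and 27.5%.

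**Figure D4:**
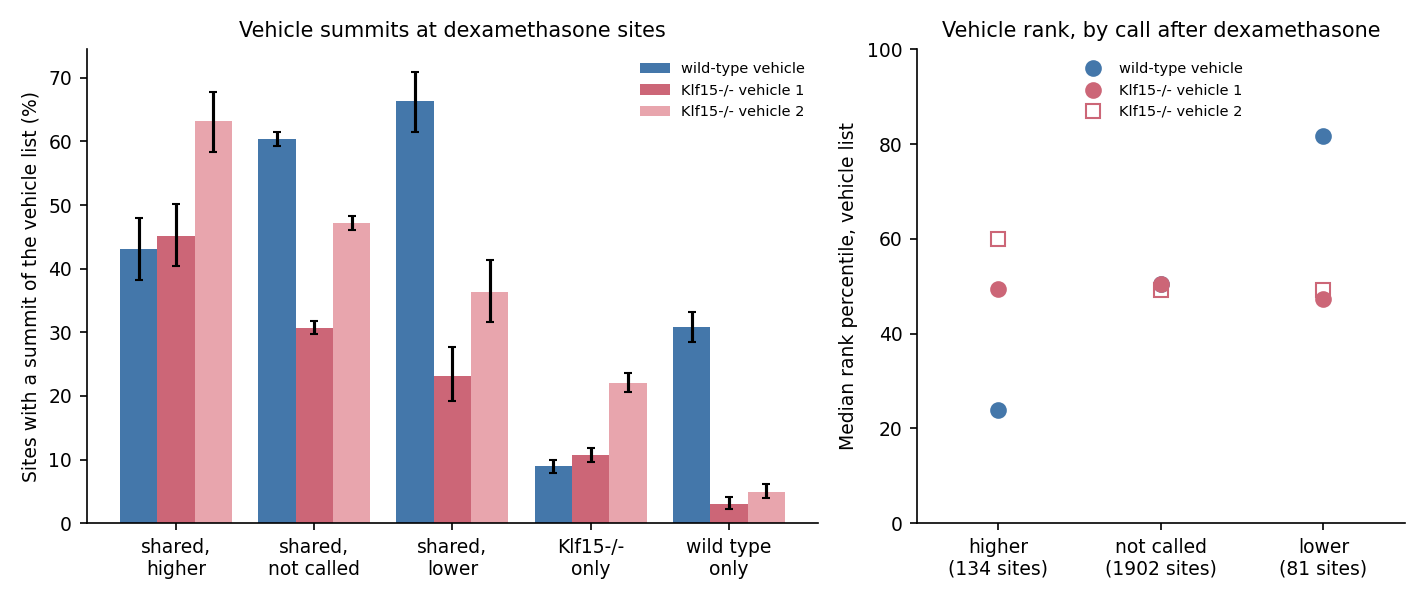
Left, percent of sites of each class with a summit of each vehicle list within 200 bp, with exact 95% intervals that cover counting error only. Right, median rank percentile in each vehicle list of the 134 shared sites called higher, 1902 not called and 81 called lower that all 3 vehicle lists held; wild type is at 24.0 for the higher and 81.6 for the lower class.

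Shared sites close to each other were weakly alike in their genotype difference. For adjacent shared sites 5 to 20 kb apart, the genotype differences had a Pearson correlation of 0.19 over 1578 pairs. It was 0.24 under 1 kb (144 pairs), 0.12 from 1 to 5 kb (622), 0.11 from 20 to 100 kb (2583) and 0.03 from 100 to 1000 kb (3285). Replicate differences of the same pairs had correlations between -0.10 and 0.03 in these bins. With each chromosome's median removed, the value at 5 to 20 kb was 0.18. These correlations are weak and describe pairs that share the same 4 lists.

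A minority of restricted sites had a shared site within 10 kb, 26.1% in wild type and 16.0% in Klf15-/-. The nearest shared site ranked higher in Klf15-/- for 38.8% of the former and 59.2% of the latter, beside 49.7% of all shared sites. For the 394 wild-type restricted sites, it had median percentiles of 55.6 and 55.6 for wild type, against 49.8 and 50.6 for Klf15-/-. It was called lower in Klf15-/- for 39 (9.90%) and higher for 17 (4.31%), beside 4.57% and 4.76% of all shared sites. For 522 Klf15-/- restricted sites the medians were 47.1 and 47.9 for wild type, against 53.6 and 55.9. There 37 were called higher (7.09%) and 17 lower (3.26%). Several restricted sites may count the same neighbour.

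Summit positions differed between genotypes about as much as between replicates. In the 8756 shared sites with 1 summit in each list, the median distance was 36 bp between replicates of either genotype and 36 to 38 bp between genotypes. At sites called lower the median distance was 23 bp between wild-type and 38 bp between Klf15-/- replicates. At sites called higher it was 38.5 bp and 27 bp, the reverse order.

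Ranks also differed between genotypes by chromosome. The median rank of the shared sites did not overlap between genotypes on 12 of 19 chromosomes (63.2%), higher in Klf15-/- on 6 and lower on 6. Single shared sites lacked overlap at 53.2%. Setting each chromosome's median to 0 changed the whole little. The SD ratio of genotype to replicate differences was then 1.38 against 1.39, and 53.5% of sites lacked overlap. On chromosome 15 it was 55.8 and 56.3 for wild type, against 47.7 and 47.4 for Klf15-/-. On chromosome 10 it was 54.4 and 54.1 against 47.9 and 46.1. The opposite was seen on chromosome 9, with 43.1 and 40.9 against 48.1 and 49.2, and on chromosome 14, with 47.5 and 45.1 against 55.2 and 50.9. Chromosome 18 showed the size of the replicate spread, with 48.6 and 53.9 against 58.1 and 52.1.

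Calls and restricted sites leaned the way of the median rank on some chromosomes and not on others. On chromosome 10, 62 of 650 shared sites were called lower (9.54%) and 14 higher (2.15%), and on chromosome 15 39 of 480 were lower (8.12%) and 18 higher (3.75%). On chromosome 14 9 of 316 were lower (2.85%) and 25 higher (7.91%). Chromosomes 6 and 13 went against this, with medians that differed by -1.404 and -1.78 points (Klf15-/- minus wild type, no overlap) but 25 and 25 sites called higher and 20 and 21 lower. On chromosome 17, where the mean of the medians was 2.15 points higher, 7 sites were called higher and 14 lower. Chromosome 10 held 142 wild-type and 138 Klf15-/- restricted sites, a ratio of 0.97, where the ratio over all chromosomes was 2.17. The ratio was 1.08 on chromosome 19, 1.09 on chromosome 15, 1.13 on chromosome 17 and 1.21 on chromosome 8. It was highest on chromosome 1 (308 to 76, 4.05), chromosome 14 (165 to 43, 3.84) and chromosome 7 (164 to 46, 3.57). Across the 19 chromosomes, the rank shift and this ratio had a Spearman correlation of 0.78, a description of values from the same lists.

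**Figure D5:**
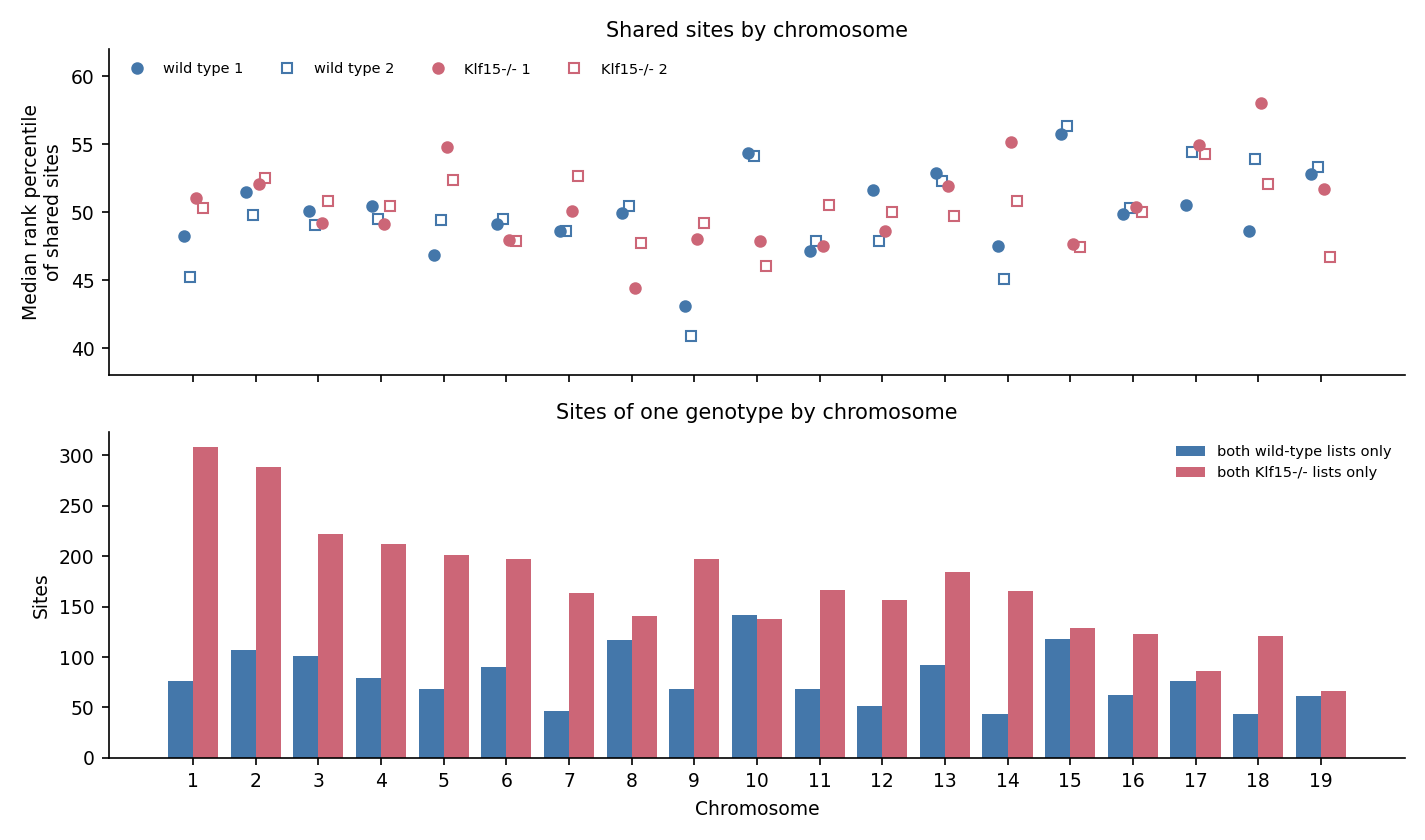
Top, median rank percentile of the shared sites of each chromosome in each of the 4 lists (blue, wild type; red, Klf15-/-); the axis runs from 38 to 62, and chromosomes 10 and 15 have both wild-type values over 54 and all Klf15-/- values under 48. Bottom, number of sites restricted to wild type (blue) or Klf15-/- (red) per chromosome.

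Vehicle ranks per chromosome differed the same way on chromosome 15, with a median of 58.6 for wild type, against 46.7 and 47.3. They did so on chromosome 10 (55.9 against 49.96 and 45.7) and on chromosome 9 (42.8 against 47.5 and 53.7). On chromosome 17 the vehicle medians were 58.8 against 51.9 and 45.0, whereas the dexamethasone medians were 50.5 and 54.4 against 55.0 and 54.3. On chromosome 8, where the dexamethasone medians were 49.9 and 50.5 for wild type and lower, 44.4 and 47.7, for Klf15-/-, the vehicle medians were 43.1 against 45.2 and 43.0. The number of chromosome copies in these cultures was not tested. The genotype difference was not confined to these chromosomes. Chromosomes 8, 10, 15, 17 and 19 were left out together, since an earlier analysis of these lists had found fewer Klf15-/- summits there. Without them the SD ratio of genotype to replicate differences was 1.39, and 278 higher and 250 lower sites were called among 6529. With each chromosome's median set to 0 in every list, 709 sites were called, of which 653 were among the 819. The vehicle ranks of called sites also differed without these 5 chromosomes, with 78.1% of 114 higher and 7.32% of 41 lower sites above wild type.

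Medians were also taken over regions within chromosomes, in 200 windows of 5 Mb with at least 20 shared sites. The median over the sites of a window of the genotype difference ranged from -15.0 to 14.6 points. Of the 200 windows, the list medians did not overlap between genotypes in 48 higher in Klf15-/- and 57 lower. Single shared sites lacked overlap about as often, at 26.0% and 27.3%, so these counts show nothing particular to regions. The windows at either end are given here after their values were seen. The highest was on chromosome 7 from 95 to 100 Mb, where 23 shared sites had medians of 36.2 and 34.0 for wild type, against 51.0 and 58.8 for Klf15-/-. It held 13 Klf15-/- and 2 wild-type restricted sites. The lowest was on chromosome 8 from 35 to 40 Mb, where 21 shared sites had 52.5 and 46.8 against 35.4 and 41.03 in Klf15-/-. Its restricted sites did not lean that way, with 9 of Klf15-/- and 4 of wild type, a ratio near that over all chromosomes.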

How the data were processed

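Chromatin immunoprecipitation against the glucocorticoid receptor was sequenced in 7 libraries. Per the submitters' processing notes, CASAVA 1.4, Bowtie2 and SAMtools were used, on mm9. Peak calling is not described in the sources used here. Each deposited list holds the 1 bp summits of 1 library with the authors' peak score, on a scale that is not stated. Labels gave the groups. Scores served only as ranks within a list, tied scores sharing their mean rank. Where a list had several summits in a site, the highest counted.

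Sites came from single linkage over the 4 dexamethasone lists at 200 bp. Normal scores of ranks among the shared sites were fitted with limma (eBayes with trend, genotype as the term, 2 residual degrees of freedom and 24.5 prior), with Benjamini-Hochberg adjustment over all 8781 sites. This excludes sites that fell below the peak threshold in any list. Sites were named by a rule: the 10 called sites of each direction with the widest gap between genotypes, the 5 strongest shared sites and, by the lower of their 2 percentiles, the 10 strongest restricted sites of each genotype. The members and the rule were chosen with earlier results of these data known. Read depth is unknown, so precision is given by replicate spread and, for shares, by exact binomial intervals. Linkage and fit were tested on simulated data. The tools were limma 3.58.1 in R 4.3.3, and scipy 1.17.1, pandas 2.3.3, numpy 2.4.6 and matplotlib 3.10.9 in Python 3.11.15. Alternatives covered linkage gaps, score and length limits on the lists, chromosomes, rank scale, the variance model, the replicate block and each library left out. An mm9 genome and annotation were not used here, so the planned gene names and motifs are not analysed.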

Additional observations from a re-analysis of the deposited data

Results flagged for a closer look

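Outside the chromosomes compared, chromosome Y carried summits in the Klf15-/- lists. After dexamethasone there were 75 in the first Klf15-/- library and 75 in the second, against 2 and 1 in wild type. The sex of the embryos behind the cultures is not given in the labels, and its part in the autosomal differences was not tested. Groups of 2 libraries are too small to look for an outlying library.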

How the results depend on the processing

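The main counts and ratios gave 95 alternative values, of which 49 were close to the reported value and 46 were not. Close means within 1.5 times for a count, within the exact 95% interval for a percent or the ratio of restricted sites, and within 1 SD of the values against each genotype's replicates for the SD ratio, so the scale differs between kinds of value. Of 245 values for the 20 named shared sites, 205 kept their call and 40 lost it. Those 40 came from limma without a spread varying with rank and from plain percentiles, in which limma called 0 sites higher and 0 lower. The cause was not tested. A named site not found in all lists used gave no value, so the 245 leave such cases out. In lists of equal length 10 of the 20 gave a value, and in lists cut at their median score none did. With the lower-scoring part of each list removed at its median, 4421 shared, 826 wild-type and 1780 Klf15-/- restricted sites were left, fewer by construction. There limma called 274 higher and 253 lower, the SD ratio was 1.46 and 55.0% of sites did not overlap. In lists of equal length 2120 sites were restricted to Klf15-/-, a ratio of 1.10. A gap of 100 bp gave a ratio of 1.99. Without chromosomes 8, 10, 15, 17 and 19 there were 994 wild-type restricted sites, a ratio of 2.72, and 278 higher and 250 lower calls, from fewer sites. On within-list percentiles 198 sites were called lower and the SD ratio was 1.30, and the share of calls that were higher was 71.1% against 51.0%.

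Leaving out 1 library in turn gave 2273 to 3816 wild-type and 4255 to 6784 Klf15-/- restricted sites, ratios of 1.12 to 2.98, 224 to 471 higher and 139 to 396 lower calls, SD ratios of 1.32 to 1.403, and 75.4% to 76.6% of sites without overlap. A genotype with 1 library has fewer values to overlap and need not repeat its sites, and its spread is taken from the other genotype. Same-numbered libraries did not deviate together in rank (Pearson correlation of replicate differences 0.0037 across shared sites). Whether same-numbered libraries were prepared together is not stated in the labels, and this value cannot decide it. With the replicate block limma called 443 higher and 416 lower, 802 of them among the 819. In the replicate block of same-numbered pairs, 4539 and 5195 sites were restricted to wild type and 8634 and 8216 to Klf15-/-, with ratios of 1.90 (pair 1) and 1.58 (pair 2).

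In alternatives chosen after the data were seen, 71.2% of the shared sites without overlap and higher in Klf15-/- also ranked higher in its vehicle lists, as did 31.7% of those lower. The read depth and the score scale, both unknown, limit how far a missing summit can be read as missing occupancy.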
